A study of Mus musculus with 6 samples.

Results

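The mitochondrial genome encodes 37 genes, and all 37 were found among the 38293 genes of the deposited count table by their identifiers and by symbols that start with mt-. They are the 2 ribosomal RNAs (mt-rRNAs) mt-Rnr1 and mt-Rnr2, 13 messenger RNAs (mt-mRNAs) and 22 transfer RNAs (mt-tRNAs). To study the loss of ZEB2 from injured cardiomyocytes, hearts were taken from 3 Zeb2 fl/fl mice (controls) and 3 Zeb2 cKO mice (knockouts), all 14 days after an infarct caused by lasting closure of the LAD coronary artery. The mice were of a backcrossed C57BL/6J background, and the methods describe males of 8 to 10 weeks. Both groups carried floxed Zeb2 alleles, and the Zeb2 cKO mice also carried a Cre recombinase driven by the murine Myh6 promoter, which is active in cardiomyocytes. The labels call the Zeb2 fl/fl mice WT. Since the control mice are described without the Cre transgene, effects of the Cre and of the Zeb2 deletion cannot be told apart in this design. The labels place the tissue in the border region of the infarct, whereas the methods of the study place it in the remote zone.

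Each cardiomyocyte holds many mitochondria, and mt-mRNAs are among the most abundant transcripts of the heart. The circular genome is transcribed from both strands into long precursor RNAs, in which tRNAs lie between most of the rRNAs and mRNAs, and the tRNAs are cut out to release the RNAs on either side. The mt-mRNAs encode core subunits of the respiratory chain complexes and of ATP synthase, while all the factors that copy, process and translate them come from nuclear genes. The heavy strand is the template for both rRNAs, most tRNAs and all mRNAs but mt-Nd6, and the light strand is the template for mt-Nd6 and 8 tRNAs.

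All 37 genes of the files were placed on chromosome M of GRCm38 with the Gencode M21 annotation. The bases that join neighbouring genes are shown for 4 places, because a read that touches 2 genes cannot be given to one of them, as read from the Gencode M21 transcripts. In the first, capitals mark mt-Tv, the valine tRNA, between the ends of both rRNAs (chrM:1005-1113, plus strand). In the second, capitals mark mt-Ti, the isoleucine tRNA, after the end of mt-Nd1, and the first 2 capitals belong to both genes (chrM:3686-3774, plus strand). In the other two, capitals mark the 43 bases that belong to both mt-Atp8 and mt-Atp6 (chrM:7907-7989) and the 7 bases that belong to both mt-Nd4l and mt-Nd4 (chrM:10147-10193).
mt-Rnr1/mt-Tv/mt-Rnr2: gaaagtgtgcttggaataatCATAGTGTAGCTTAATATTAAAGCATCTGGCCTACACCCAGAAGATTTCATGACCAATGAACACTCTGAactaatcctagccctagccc
mt-Nd1/mt-Ti: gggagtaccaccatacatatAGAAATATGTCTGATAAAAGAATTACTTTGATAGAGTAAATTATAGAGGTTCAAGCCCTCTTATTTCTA
mt-Atp8/mt-Atp6: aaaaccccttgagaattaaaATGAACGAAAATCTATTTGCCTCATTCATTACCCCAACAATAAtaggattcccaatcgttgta
mt-Nd4l/mt-Nd4: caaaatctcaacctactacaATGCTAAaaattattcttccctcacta

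Of the 37 genes, 11 had 0 counts in all 6 libraries and 15 passed edgeR's filter on low counts, namely both rRNAs, 7 of the 13 mRNAs and 6 of the 22 tRNAs. The other 6 mRNAs had at most 4 counts in any library. These were mt-Co2 and mt-Co3 of complex IV, mt-Atp6 and mt-Atp8 of ATP synthase, and mt-Nd3 and mt-Nd4l of complex I. mt-Atp6, mt-Atp8 and mt-Nd4l had 0 counts in every library. mt-Co2 had 2 counts in knockout replicate 1, 1 in knockout replicate 3 and 0 elsewhere. mt-Co1 of the same complex IV, which lies just before this stretch, had between 792292 and 1315773 counts per library. A count of 0 allows up to 3 counts per library, a share of at most 8.05e-06% of all counts. The counts of these 6 mRNAs are therefore too low for any statement on their level or on a genotype difference.

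**Figure D1:**
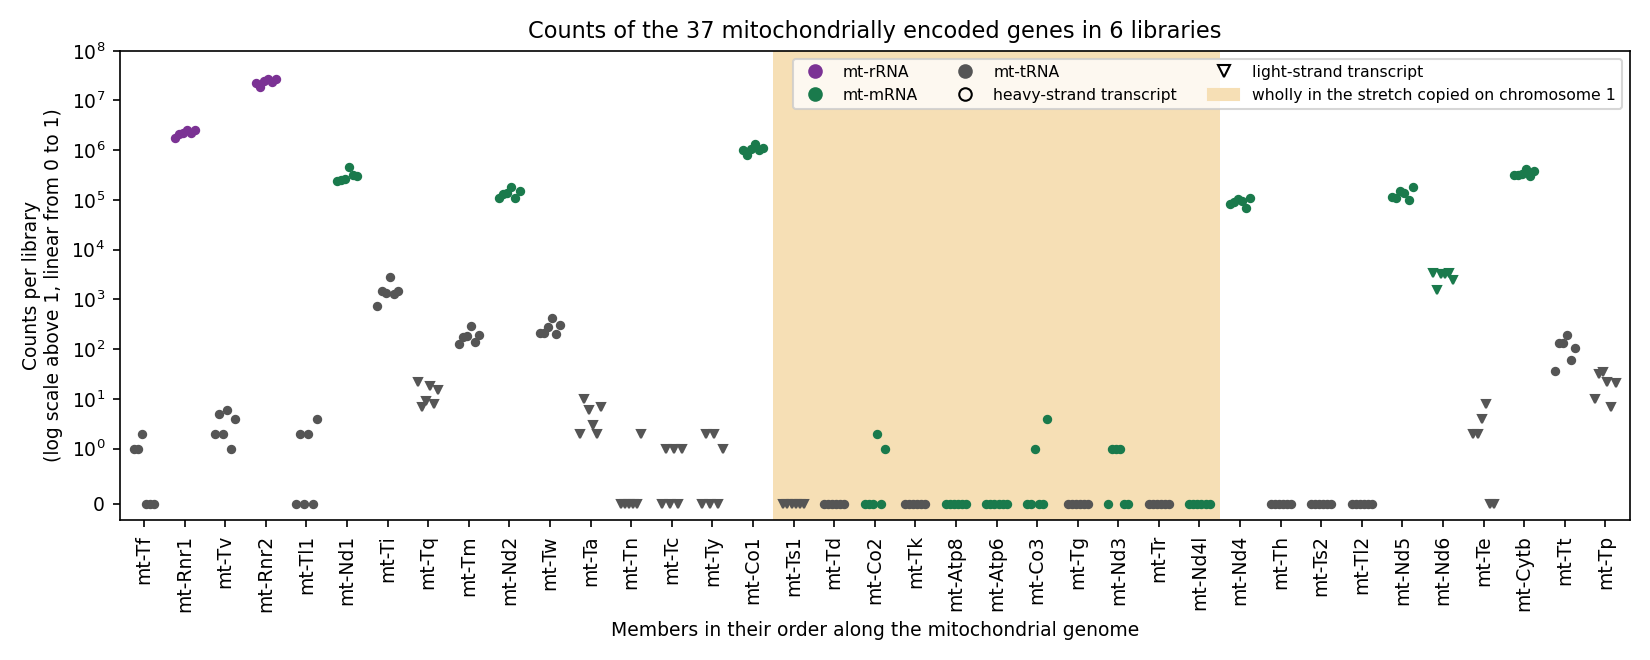
Counts of the 37 mitochondrially encoded genes in each of the 6 libraries, on a log axis above 1, in their order along the genome from left to right. Points of 1 gene run from Zeb2 fl/fl replicates 1 to 3 to Zeb2 cKO replicates 1 to 3, and the 11 genes in the shaded stretch hold at most 4 counts in any library.

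The 6 mRNAs lie in 1 stretch of the genome, with tRNAs between some of them. Each stretch of 75 bases, the read length, was compared with all nuclear transcripts of the annotation. Of the windows in mt-Co2, 607 of 610 were identical to a nuclear transcript, as were 604 of 607 in mt-Atp6, 709 of 710 in mt-Co3, 268 of 274 in mt-Nd3 and 220 of 223 in mt-Nd4l. These copies are pseudogenes in 1 block of chromosome 1 (chr1:24611535-24616197 of GRCm38, minus strand), with 7 annotated copies. The block matches positions 6394 to 11042 of the mitochondrial genome, a span of 4649 bases. This span holds 11 members whole, the 6 mRNAs and 5 tRNAs, which had 11 counts over all 6 libraries together. No annotated copy of mt-Atp8 was found, although mt-Atp8 lies between mt-Co2 and mt-Atp6, whose copies neighbour each other on chromosome 1. Gm10222, the only one of the 7 copies with a row in the count table, had between 0 and 3 counts per library. How the study treated reads that map to more than 1 place is not stated, and its part in these low counts was not tested. The first 75 bases of mt-Co3 (chrM:8607-8681, plus strand) show the identity with its copy Gm28437 (chr1:24613897-24613971, minus strand).
mt-Co3: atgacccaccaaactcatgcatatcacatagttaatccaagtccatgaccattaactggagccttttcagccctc
Gm28437: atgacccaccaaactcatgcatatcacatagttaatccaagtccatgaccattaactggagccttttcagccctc

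The copies also reached into mRNAs that were counted. In mt-Co1, 39.8% of the windows were identical to a nuclear transcript, and in mt-Nd4 61.5% were. The share was 5.7% in mt-Nd2 and 1.7% in mt-Nd5, and no identical window was found in mt-Nd1, mt-Nd6, mt-Cytb or either rRNA. The levels of mt-Co1 and mt-Nd4 are therefore uncertain. The nuclear copy with the most counts, Gm13340, a copy of mt-Co1 on chromosome 2, had between 241 and 395 counts per library, and Gm13341, a copy of mt-Co2, had between 61 and 85. Gm13340 was small beside the counts of mt-Co1. Gm13341 had more counts in every library than mt-Co2, which had at most 2.

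The tRNAs were between 59 and 75 bases long and so no longer than a read. Positions were counted at which a read of 75 bases on the strand of a gene touches that gene and no other. For 9 of the 22 tRNAs there was at most 1 such position, and these 9 had at most 6 counts in any library. mt-Tv, which abuts both rRNAs, had 0 such positions and between 1 and 6 counts, beside 18743378 to 27395087 counts of its neighbour mt-Rnr2. mt-Ti had 63 such positions and between 750 and 2888 counts, the most of any tRNA. With strand ignored mt-Ti would have 0 positions, since mt-Tq on the other strand follows at once, as would mt-Tm and mt-Tw with their 127 to 295 and 199 to 415 counts. The strand option of the counting is not stated in the study, and only a count by strand leaves positions for these 3 tRNAs. Because the number of positions differed so much, tRNAs were not ranked by level.

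The 8 tRNAs transcribed from the light strand had at most 34 counts in any library, although each had at least 26 such positions. mt-Tq, the glutamine tRNA next to mt-Ti on the other strand, had 145 positions, more than the 63 of mt-Ti, and had 7 to 22 counts. The only mRNA of the light strand, mt-Nd6 of complex I, had between 1581 and 3382 counts. It had the fewest counts of the 7 counted mRNAs, with no window identical to a nuclear transcript.

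Total counts were between 37288174 and 51136331 per library. The 95% Wilson intervals of the shares of all counts were at most 0.0319 percentage points wide, and at most 0.000478 for the 22 tRNAs together. Those of the shares of mt-mRNA counts were at most 0.15 percentage points wide. Intervals and floors cover counting error only, since reads are not independent molecules. Zeb2 was at 61.3, 116 and 71.9 CPM (counts scaled to a common library size, with TMM factors) in control replicates 1, 2 and 3, against 59.5, 72.5 and 66.4 CPM in knockout replicates 1, 2 and 3, so the groups overlapped in this whole tissue (edgeR, log2 fold change -0.33, SE 0.25, adjusted p = 0.957). The cardiomyocyte markers were summed for 12 genes, and the sum was at 71900, 37110 and 66030 CPM in the control libraries and between 58720 and 71670 CPM in the knockout libraries. The sum of 10 fibroblast and matrix markers was at 1845, 10550 and 2308 CPM and between 1853 and 2561 CPM, and that of 10 macrophage markers at 195, 836.5 and 277 CPM and between 234 and 254 CPM. Of these 3 lists no marker was at 0 in all libraries. Control replicate 2 thus stood apart by its cell type markers, and several values are given also without it. In such tissue fewer cells of a type and less RNA per cell cannot be told apart.

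Mitochondrially encoded genes held most of the counts in every library. Their share was 64.9%, 60.5% and 67.0% in control replicates 1, 2 and 3 and 63.7%, 63.9% and 62.6% in the knockout replicates. The knockout values all lay between the lowest and the highest control value. The means were 64.2 ± 3.30% and 63.4 ± 0.715% (SD, n = 3 each), a difference of -0.776 percentage points (exact permutation test, two-sided p = 0.8). For 3 mice against 3 the smallest p of this test is 0.1. Without control replicate 2 the difference was -2.58 percentage points, and without control replicate 3 it was 0.662.

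Most of this was rRNA. The libraries were made after a depletion of ribosomal RNA, and the study does not state whether it targets the mt-rRNAs. The 2 mt-rRNAs, which form the core of the mitochondrial ribosome, held 60.4%, 56.0% and 62.3% of all counts in the control libraries and 58.6%, 59.4% and 58.1% in the knockout libraries. The difference between the means was -0.836 percentage points (exact permutation test, two-sided p = 0.7). It was -2.62 without control replicate 2 and 0.552 without control replicate 3. mt-Rnr2, the large subunit rRNA, held between 53.2% and 54.4% in the knockout libraries and 56.0%, 50.3% and 57.1% in the control libraries. mt-Rnr1, the small subunit rRNA, held between 4.90% and 5.07% in the knockout libraries and 4.36%, 5.73% and 5.23% in the control libraries. Control replicate 2 had the lowest share of mt-Rnr2 and the highest of mt-Rnr1.

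In a cell both rRNAs are made from the same precursors, so their ratio was compared. mt-Rnr2 had 12.8, 8.78 and 10.9 counts for each count of mt-Rnr1 in the control libraries and 10.6, 10.7 and 10.9 in the knockout libraries. The group means of 10.8 ± 2.03 and 10.7 ± 0.116 (SD, n = 3 each) were alike in size, but the control libraries spread far more widely (exact permutation test of the means, two-sided p = 0.7). The likeness rested on control libraries on either side. The difference of -0.107 became -1.14 without control replicate 2 and 0.886 without control replicate 1.

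The 13 mt-mRNAs together held 4.53%, 4.55% and 4.69% of all counts in the control libraries and 5.08%, 4.43% and 4.43% in the knockout libraries. These shares come from the 7 counted mRNAs, since the other 6 had at most 4 counts in any library. They thus do not give the level of all 13. The highest and the lowest values were both from knockout libraries, and the difference between the means was 0.0595 percentage points (exact permutation test, two-sided p = 1). When the mt-rRNAs were left out of the total, the mt-mRNAs held 11.4%, 10.3% and 12.4% of the remaining counts in the control libraries and 12.3%, 10.9% and 10.6% in the knockout libraries, a difference of -0.141 percentage points (exact permutation test, two-sided p = 0.9). The 22 mt-tRNAs held 0.00284%, 0.00555% and 0.00458% in the control libraries and 0.00754%, 0.00388% and 0.00423% in the knockout libraries. Knockout replicate 1 was highest for mRNAs and for tRNAs, and without it both differences turned, to -0.158 and -0.000271 percentage points.

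**Figure D2:**
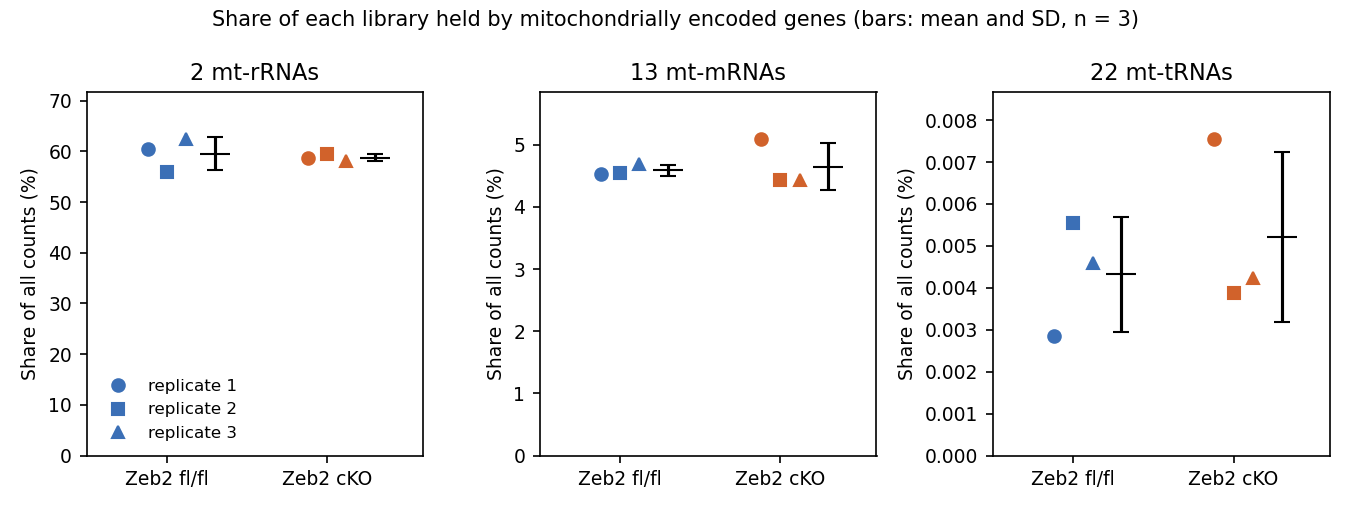
Share of all counts, in percent, held by the mt-rRNAs, mt-mRNAs and mt-tRNAs in each library, with a point per mouse and bars for the mean and SD of 3 mice. In each of the 3 classes the points of both genotypes overlap, and the rRNAs hold 56.0% to 62.3% of all counts.

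Per kilobase of annotated length, mt-Co1, the catalytic core of complex IV, was highest of the 7 counted mRNAs, at 15400 ± 3210 CPM per kb in control and 15200 ± 1810 CPM per kb in knockout hearts (SD, n = 3 each). mt-Nd1 of complex I followed at 6520 ± 610 and 7710 ± 1810 CPM per kb and mt-Cytb, the mitochondrial subunit of complex III, at 7090 ± 673 and 6480 ± 608 CPM per kb, which did not differ from each other beyond their spread. mt-Nd2 stood lower at 3070 ± 407 and 2910 ± 513 CPM per kb. Then came mt-Nd5 at 1750 ± 400 and 1540 ± 315 CPM per kb and mt-Nd4 at 1690 ± 230 and 1340 ± 181 CPM per kb, also within each other's spread. The light-strand mRNA mt-Nd6 was lowest at 135 ± 57.1 and 119 ± 30.7 CPM per kb.

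The order depends in part on the length used. When only read positions were counted that touch 1 gene and match no nuclear transcript, mt-Nd4 had 503 such positions and stood at 4140 CPM per 1000 positions over all 6 libraries, above mt-Nd2 at 3420, whereas per kilobase it stood at 1510 CPM below mt-Nd2 at 2990. mt-Co1, with 1028 such positions, stood at 23000 CPM per 1000 positions. mt-Nd1 and mt-Cytb, with 7730 and 6780 CPM per 1000 positions, and mt-Nd6, with 127, kept their places. This second scale was chosen after seeing the counts.

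Between genotypes the quasi-likelihood test of edgeR was run on the 15 tested members, with the fit over all 14746 genes that passed the filter. No member had an adjusted p under 0.05, and adjusted p-values ran from 0.957 to 0.998 (edgeR, Benjamini-Hochberg). Over all genes 0 (0%) passed this threshold and 280 (1.9%) had an unadjusted p under 0.05, which was reached by 0 of the 15 members. The log2 fold change from control to knockout was above 0 for 4 members and below 0 for 11. Among the 7 counted mRNAs it was above 0 only for mt-Nd1 and below 0 for 6, with a median of -0.13 beside -0.0069 over all genes tested, although mt-Co1 turned from -0.017 to 0.0365 without TMM factors. Without control replicate 3 the median was 0.00662, and mt-Nd2, mt-Co1 and mt-Nd5 were also above 0. With any other single library left out the median stayed below 0. DESeq2 called no member.

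mt-Nd1, which builds the membrane arm of complex I, was at 6260, 5650 and 6820 CPM in control replicates 1, 2 and 3 and at 9140, 7320 and 5680 CPM in the knockout replicates. Knockout replicates 1 and 2 lay above all control libraries, and knockout replicate 3 lay among them. Its log2 fold change was 0.24 with a standard error of 0.30 (edgeR, adjusted p = 0.957), and 0.058 without knockout replicate 1. mt-Nd2, another membrane subunit, was between 2890 and 3670 CPM in control and between 2570 and 3610 CPM in knockout libraries, with a log2 fold change of -0.079.

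mt-Nd4, also of the membrane arm, was at 2180, 2110 and 2690 CPM in the control libraries and at 1890, 1580 and 2070 CPM in the knockout libraries. It was the only tested member whose groups did not overlap, all 3 knockout libraries being lower, where 6.36% of all tested genes did not overlap, 2.97% being lower and 3.39% higher in the knockouts. Its log2 fold change was -0.33 with a standard error of 0.23 (edgeR, unadjusted p = 0.189, adjusted p = 0.957). As a share of all counts without TMM scaling, mt-Nd4 was at 0.201%, 0.248% and 0.238% in the control libraries and at 0.185%, 0.158% and 0.219% in the knockout libraries, and on this scale the groups overlapped. Only 503 of the 1298 positions at which a read touches mt-Nd4 alone match no nuclear transcript. With 1 library left out, the log2 fold change ran from -0.42 without knockout replicate 3 to -0.21 without control replicate 3, and without control replicate 2 it was -0.40 (unadjusted p = 0.0488, adjusted p = 1, edgeR).

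mt-Nd5, a further membrane subunit, had a log2 fold change of -0.18 and was at 3050, 2550 and 3980 CPM in the control libraries and at 2740, 2270 and 3420 CPM in the knockout libraries. mt-Nd6 was at 89.7, 36.0 and 84.5 CPM in the control libraries and at 63.3, 76.9 and 45.1 CPM in the knockout libraries. Its lowest value was that of control replicate 2, the library that was high in fibroblast and macrophage markers, and the part of those cells in it was not tested. The log2 fold change of mt-Nd6 was -0.18 with a standard error of 0.36, and -0.49 without that library (unadjusted p = 0.0414, adjusted p = 1, edgeR). It was 0.0366 without control replicate 1 and -0.000385 without knockout replicate 3, and below 0 with any other single library left out.

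mt-Co1 was at 26200, 18000 and 27000 CPM in the control libraries and at 26300, 23500 and 20700 CPM in the knockout libraries, with a log2 fold change of -0.017. Its lowest value was also that of control replicate 2. mt-Cytb was between 7240 and 8720 CPM in control and between 6930 and 8210 CPM in knockout libraries, with a log2 fold change of -0.13 and a standard error of 0.27. For the rRNAs the log2 fold changes were -0.062 for mt-Rnr1 and -0.076 for mt-Rnr2. edgeR shares the spread between genes of like abundance, and for mt-Rnr2, the most abundant RNA of the table, it gave a standard error of 0.80, whereas its log2 CPM had an SD of 0.32 over the control and 0.067 over the knockout libraries.

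**Figure D3:**
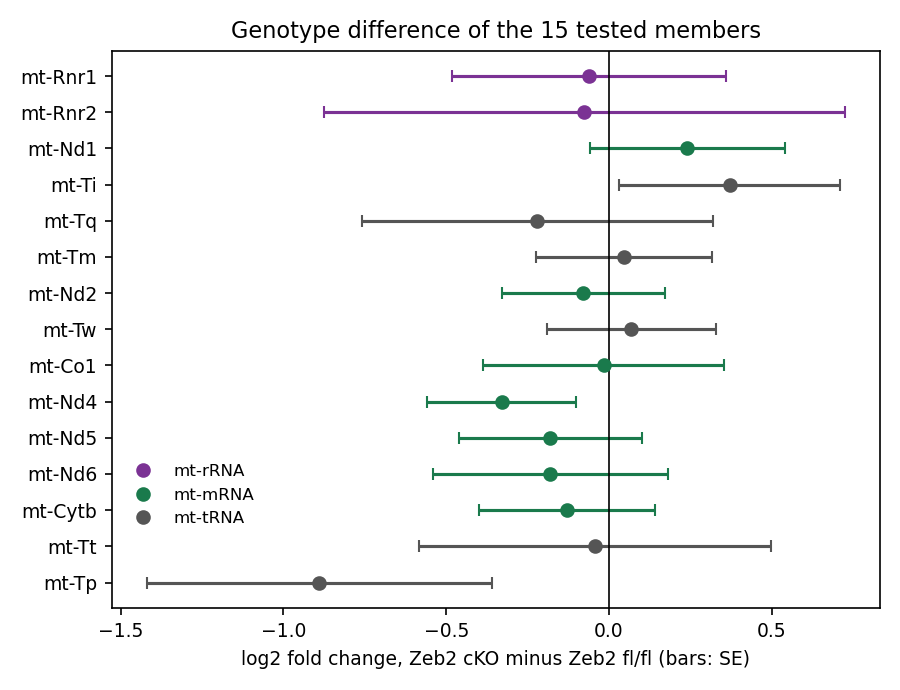
Log2 fold change from Zeb2 fl/fl to Zeb2 cKO hearts for the 15 tested members, in genome order from top to bottom, with bars for the standard error of the edgeR fit. Values run from -0.89 for mt-Tp to 0.37 for mt-Ti, and no member had an adjusted p under 0.05.

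Of the tRNAs, mt-Ti was at 19.9, 33.8 and 34.7 CPM in the control libraries and at 57.7, 29.1 and 27.8 CPM in the knockout libraries. Only knockout replicate 1 lay above the control libraries, the library that was also highest for mt-Nd1. The log2 fold change of mt-Ti was 0.37 with a standard error of 0.34 (edgeR, adjusted p = 0.957), and -0.050 without that library. mt-Ti follows mt-Nd1 directly, and it had 3.18, 5.98 and 5.09 counts per 1000 counts of mt-Nd1 in the control libraries and 6.31, 3.98 and 4.89 in the knockout libraries. mt-Tw, the tryptophan tRNA, and mt-Tm, the methionine tRNA, had log2 fold changes of 0.068 and 0.046. The light-strand tRNAs mt-Tp for proline and mt-Tq for glutamine had -0.89 and -0.22, with standard errors of 0.53 and 0.54. mt-Tp had 10, 31 and 34 counts in the control libraries and 22, 7 and 21 in the knockout libraries, so its fold rests on few counts.

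Light-strand tRNAs made up 3.10%, 2.56% and 2.67% of the mt-tRNA counts in the control libraries and 1.40%, 1.01% and 2.19% in the knockout libraries. The knockout values all lay below the control values, a difference of -1.24 percentage points (exact permutation test, two-sided p = 0.1, the smallest it can give). Of 22 totals, shares and ratios compared in this way, only this one and the total of nuclear counts did not overlap. Nuclear counts were 14330275, 14710669 and 14301225 in the control libraries and 18558343, 15640384 and 19024394 in the knockout libraries (p = 0.1, same exact permutation test). Total counts overlapped, with 43378458 in control replicate 3 and 43293196 in knockout replicate 2. The part of sequencing depth in the nuclear counts was not tested. The light-strand share rests on 36, 53 and 53 light-strand counts in the control libraries and 54, 17 and 47 in the knockout libraries. Its 95% Wilson intervals in single libraries were 0.748 to 2.02 percentage points wide. Those of knockout replicates 1 and 2 ended at 1.82% and 1.61%, below the control intervals, which began at 2.25%, 1.96% and 2.04%. That of knockout replicate 3 ran from 1.65% to 2.9% and overlapped them. The counting error of the difference between the means was not computed. As a share of all counts the light-strand tRNAs overlapped between the groups, at 8.82e-05%, 0.000142% and 0.000122% in the control libraries and 0.000106%, 3.93e-05% and 9.25e-05% in the knockout libraries. Of the mt-tRNA counts of both strands, mt-Ti alone made up between 64.7% and 75.3%. Among the mt-mRNAs, mt-Nd6, the light-strand mRNA, made up 0.183%, 0.0932% and 0.160% of the mt-mRNA counts in the control libraries and 0.122%, 0.174% and 0.108% in the knockout libraries, and the groups overlapped (p = 0.9, same exact permutation test).

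The make-up of the mt-mRNA counts does not depend on the scaling of the libraries. It is that of the 7 counted mRNAs, and the shares among all 13 cannot be given. mt-Co1 made up 53.5%, 46.7% and 50.9% of the mt-mRNA counts in the control libraries and 50.6%, 53.1% and 49.4% in the knockout libraries. This was more than all other counted mRNAs together except in control replicate 2 and knockout replicate 3, where it was under 50%. mt-Nd1 made up 12.8%, 14.6% and 12.9% in the control libraries and 17.6%, 16.6% and 13.6% in the knockout libraries, a difference of 2.48 percentage points (exact permutation test, two-sided p = 0.2). mt-Nd4 made up 4.44%, 5.45% and 5.08% in the control libraries and 3.65%, 3.57% and 4.94% in the knockout libraries, a difference of -0.939 percentage points (exact permutation test, two-sided p = 0.2). Within complex I, mt-Nd1 and mt-Nd4 thus had differences of opposite sign, and the groups overlapped for both. mt-Cytb differed by -1.27, mt-Nd5 by -0.585, mt-Nd2 by -0.325 and mt-Co1 by 0.648 percentage points, with exact p-values (permutation test, two-sided) between 0.2 and 1. With 1 library left out, the difference ran from -1.57 (without knockout replicate 3) to -0.0621 (without knockout replicate 2) for mt-Nd5, and for mt-Cytb it was -0.607 without control replicate 2. The counted complex I mRNAs together, thus without mt-Nd3 and mt-Nd4l, made up 32.2 ± 2.55% in control and 32.8 ± 1.36% in knockout hearts (SD, n = 3 each).

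**Figure D4:**
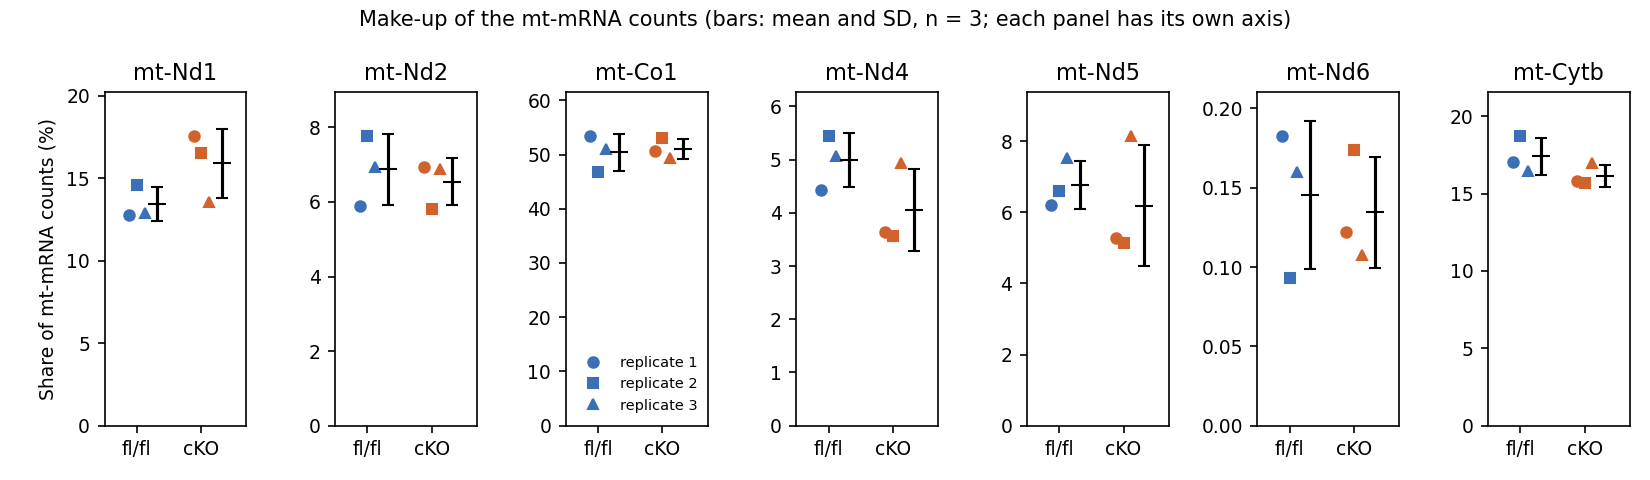
Share of the mt-mRNA counts, in percent, held by each of the 7 counted mRNAs, with a point per mouse and bars for the mean and SD of 3 mice. The points of both genotypes overlap for each mRNA, and mt-Co1 holds 46.7% to 53.5%.

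Nuclear genes that serve the mitochondrial genome were described from lists, each read against the 1.04% of all tested genes that were higher and the 0.861% that were lower in knockout hearts at an unadjusted p under 0.05. Of 18 genes of mitochondrial DNA transcription and replication, 0 passed in either direction, and the median log2 fold change was 0.058, and 0.0026 without control replicate 2. Polg2, the accessory subunit of the mitochondrial DNA polymerase, had a log2 fold change of 0.35, and Ssbp1, which binds single-stranded mitochondrial DNA, had one of 0.22. Ssbp1 was at 3.74, 3.78 and 3.88 CPM in the control libraries and at 4.67, 4.65 and 3.98 CPM in the knockout libraries, without overlap (edgeR, adjusted p = 0.957).

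Of 19 tested genes that process and stabilise mitochondrial RNA, 0 passed, 17 had a log2 fold change above 0, and the median was 0.13. Without control replicate 2, 10 of the 19 were above 0, with a median of 0.0010. Pnpt1, which degrades mitochondrial RNA, had a log2 fold change of 0.13 and Lrpprc one of 0.42. Lrpprc, which binds and stabilises mt-mRNAs, was at 81.5, 44.8 and 91.9 CPM in the control libraries and at 118, 81.4 and 93.0 CPM in the knockout libraries, and its lowest value was again in control replicate 2, without which the log2 fold change was 0.17. Of 23 genes that modify mitochondrial rRNAs and tRNAs, 0 passed and the median was 0.13, and -0.013 without control replicate 2. Yrdc, which takes part in a tRNA modification, had a log2 fold change of 0.29 (edgeR, unadjusted p = 0.0526, adjusted p = 0.957), and Cdk5rap1, which modifies mitochondrial tRNAs, had one of -0.29.

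The nuclear subunits of the respiratory chain and ATP synthase are built into the same complexes as the proteins of the mt-mRNAs. Of 70 tested genes 1 was higher at an unadjusted p under 0.05, 0 were lower, and 0 passed after adjustment. The log2 fold change was above 0 for 68 of the 70, with a median of 0.17, beside 12 of 12 cardiomyocyte markers with a median of 0.16. Both rested on control replicate 2, without which it was above 0 for 33 of the 70, with a median of -0.0036, and for 2 of the 12 cardiomyocyte markers, with a median of -0.079. Cox7c, a small subunit of complex IV, was at 0.955, 1.28 and 1.17 CPM in the control libraries and at 1.92, 1.61 and 1.82 CPM in the knockout libraries, without overlap (edgeR, log2 fold change 0.65, unadjusted p = 0.0148, adjusted p = 0.957). Atp5g2, which encodes a membrane subunit of ATP synthase, had a log2 fold change of 0.56 and was at 0.130 to 0.280 CPM. Cox7c had 36 to 98 counts per library and Atp5g2 had 5 to 15, so both folds rest on few counts. The sum over these nuclear genes was 11620, 6593 and 10970 CPM in the control libraries and 11940, 12000 and 9439 CPM in the knockout libraries, and it was lowest in control replicate 2, as was the sum of the cardiomyocyte markers. Among the other 5 libraries the groups overlapped, and the mean was 11290 CPM in the controls and 11120 CPM in the knockouts. Whether nuclear and mitochondrial subunits differ in their response was not tested.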

How the data were processed

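The authors prepared stranded libraries from total RNA after Ribo-Zero depletion, sequenced single-end reads of 75 bases, aligned them and counted them per gene of Gencode M4 with the STAR workflow, and deposited raw counts. The submitters' processing notes name GRCm38. The STAR version, the strand option and the treatment of reads with several places are not given in the sources used here. Each of the 6 columns was matched to 1 sample, and 0 were left over. The design gives 3 mice for each genotype.

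Symbols, coordinates and sequences came from Gencode M21 (GRCm38) by gene identifier. Counts were scaled with TMM and tested with edgeR 4.0.16 (R 4.3.3) (glmQLFit, then glmQLFTest for genotype) after filterByExpr with default settings, with Benjamini-Hochberg adjustment over 14746 genes. DESeq2 1.42.0 was an alternative, and the study's DESeq was not run. Steps were tested on simulated data. Single values were compared by exact permutation tests (scipy 1.17.1). Nuclear copies were searched as identical 75-base windows and with BLAST 2.17.0 at 95% identity or more over at least 75 bases, among annotated transcripts only, so copies outside them were not seen. The members and lists were chosen with earlier results of these data known. Genes were named by rule: Zeb2, both rRNAs, each mRNA, the 3 tRNAs with the most counts, the 2 tested tRNAs with the lowest and the 2 with the highest log2 fold change, of each pathway list the 2 genes with the smallest p, and the 2 nuclear copies with the most counts. Of some marker lists the 2 genes with the highest mean CPM are named (Fabp4, Kdr, Rgs5, Pdgfrb, and Cidea and Adig of the adipocyte list). mt-Tv, mt-Tf, Gm10222, Gm28437, Slc46a2, Rn7sk, Rpph1, Rmrp, Neat1, Malat1, Adipoq, Plin1, Cidec, Retn, Lep and Ucp1 were chosen after their values were seen. Marker lists are given mainly as sums. Fits of the lists with 1 library left out were added after seeing the data.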

Additional observations from a re-analysis of the deposited data

How the results depend on the processing

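No member was called under any alternative for the scaling, the filter, the test, the replicate number or the libraries used. DESeq2's Wald test called 1 gene of the whole table, Slc46a2, where edgeR called 0. Genes with an unadjusted p under 0.05 were 280, and 429 with DESeq2, 600 without a filter and 122 to 1134 with 1 library left out, the count moving by over 1.5 times without control replicate 1 (1134) and without knockout replicates 1 (122) and 2 (181). For members this count was 0, and 1 (mt-Tf, with at most 2 counts in any library) without a filter and 0 to 2 with 1 library left out, namely mt-Tp without control replicate 1 and mt-Nd4 and mt-Nd6 without control replicate 2. The same replicate numbers in both groups do not mark the same animals, and deviations of same-numbered libraries correlated at 0.0878, -0.137 and -0.0869. With the replicate block 0 members and 0 genes were called, and 247 genes had an unadjusted p under 0.05. For the shares the paired difference equals the main one, for instance -0.776 percentage points for all members.

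With each library left out in turn, the difference ran from -2.58 to 0.662 percentage points for all members, from -2.62 to 0.552 for mt-rRNA, from -0.158 to 0.169 for mt-mRNA and from -0.000271 to 0.00156 for mt-tRNA. The median log2 fold change of the counted mRNAs ran from -0.201 to 0.00662. The ratio of mt-Rnr2 to mt-Rnr1 differed by -1.14 to 0.886. In the make-up of the mt-mRNA counts, the difference ran from -0.815 to 0.131 for mt-Nd2, from -1.19 to 2.21 for mt-Co1, from -1.57 to -0.0621 for mt-Nd5, from -1.74 to -0.607 for mt-Cytb and from -0.0368 to 0.0081 for mt-Nd6. Log2 fold changes ran from -0.121 to 0.045 for mt-Rnr1, -0.234 to 0.0394 for mt-Rnr2, -0.227 to 0.0344 for mt-Nd2, -0.178 to 0.0843 for mt-Co1, -0.351 to 0.00662 for mt-Nd5, -0.494 to 0.0366 for mt-Nd6, -0.0502 to 0.559 for mt-Ti, -0.555 to 0.493 for mt-Tq, -0.27 to 0.213 for mt-Tm and -0.207 to 0.242 for mt-Tw. Those of mt-Nd1 (0.0579 to 0.397), mt-Nd4 (-0.422 to -0.214), mt-Cytb (-0.209 to -0.0729) and mt-Tp (-1.24 to -0.552) kept their sign. List medians ran from -0.013 to 0.234 for rRNA and tRNA modification, -0.00355 to 0.266 for nuclear respiratory chain subunits and -0.0791 to 0.389 for cardiomyocyte markers, each lowest without control replicate 2. mt-Co1 was at 0.0365 without TMM factors and 0.0021 without a filter, against -0.017. The mt-mRNA difference of 0.0595 percentage points became -0.141 once the mt-rRNAs were left out of the total. The cause of these changes was not tested.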

Other observations

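The sum of 8 endothelial markers was between 543 and 717 CPM in control and between 648 and 792 CPM in knockout libraries, and that of 8 smooth muscle and pericyte markers between 559 and 734.5 CPM and between 649 and 779 CPM. Fabp4 and Kdr led the endothelial and Rgs5 and Pdgfrb the other list. Of 6 erythroid markers, 3 had a log2 fold change above 0 and 3 below 0. All adipocyte markers but Cidea were at few counts. Of 8 listed, 2 passed the filter, Cidea and Adig. Cidea, the most abundant, was at 8.62, 5.15 and 9.73 CPM in control and 11.8, 8.55 and 13.1 CPM in knockout libraries. Its groups overlapped (edgeR, log2 fold change 0.51, unadjusted p = 0.1, adjusted p = 0.957). Adig was at 0.106, 0.0683 and 0.0781 CPM in control and 0.400, 0.230 and 0.279 CPM in knockout libraries, from 3 to 4 and 10 to 20 counts. Its groups did not overlap (edgeR, log2 fold change 1.83, unadjusted p = 0.00284, adjusted p = 0.957), as was the case for 6.36% of all tested genes. Adipoq was at 3, 2 and 5 counts in the control libraries and 25, 8 and 9 counts in the knockout libraries. Plin1, Cidec and Retn, which like Adipoq did not pass the filter and were not tested, also had CPM values without overlap, higher in the knockouts. Retn had 2, 0 and 0 counts in the control libraries and 3, 3 and 3 in the knockout libraries. Since a count of 0 allows up to 3 counts, its values cannot show a difference. Lep and Ucp1, with at most 1 count in any library, overlapped.

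Among abundant noncoding RNAs of the nucleus, Rn7sk, which holds back transcription elongation, was at 3580, 7210 and 4080 CPM in the control libraries and between 3780 and 4030 CPM in the knockout libraries. Rpph1, the RNA of nuclear RNase P, was at 664, 1350 and 710 CPM and at 398, 382 and 578 CPM (log2 fold change -1.01, edgeR, unadjusted p = 0.0206, adjusted p = 0.957). Control replicate 2 was highest for both RNAs, and it also had the lowest share of mt-Rnr2 and the lowest level of mt-Co1 and mt-Nd6. Other RNAs of the same list did not all go this way. Rmrp was also highest in that library, at 597 CPM, whereas Neat1 was lowest there, at 286 CPM. Malat1 was at 2760 CPM there, against 3120 and 3220 CPM in control replicates 1 and 3.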
